A study of Mus musculus with 16 samples.

Results

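The potassium channel family was taken as the genes whose symbol starts with Kcn, and it held 90 of the 19505 genes measured, each by 1 probe set. Of these, 89 code for proteins and 1, Kcnq1ot1, is a long noncoding RNA that overlaps Kcnq1. The cells came from S100a5-tauGFP mice, in which green fluorescent protein reports the gene S100a5, and all groups carried this reporter. Olfactory mucosa was dissociated and sorted into GFP+ and GFP- cells, and total RNA (50 to 100 ng) of each fraction was hybridised to 1 Clariom S array. The 24 mice, of both sexes and 7 to 12 weeks old, were kept 1 to a chamber for 40 h in clean air flowing at 3.1 L/min. From 26 h onward they received octanol, or filtered air as vehicle, in pulses of 10 s every 20 min. Each array holds RNA of 3 mice, so the 4 groups (vehicle GFP+, vehicle GFP-, octanol GFP+ and octanol GFP-) have 4 arrays each. A value is therefore a mean over pooled animals, and neither fraction is 1 cell type.

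Potassium channels let potassium leave a cell down its gradient, which sets the resting potential and ends each spike. Voltage-gated pore subunits open on depolarisation, while modifier subunits form no channel alone and change the pores they join. Calcium-activated pores open as calcium rises, inward rectifiers hold the membrane near rest, and tandem-pore channels carry the background leak. In an olfactory sensory neuron an odorant raises cyclic AMP, cation and chloride channels depolarise the cell, and potassium channels shape the train of spikes and its end.

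Levels are log2 signals as deposited, and a difference of 1 is a doubling. They serve to compare arrays for 1 gene, not genes with each other. The background was 6.32 log2, the 95th percentile of the mean levels of 321 vomeronasal receptor genes, and array medians lay between 7.42 and 7.70. S100a5, the reporter's gene, was 1.77-fold higher in GFP+ cells after vehicle (difference 0.82, SE 0.12, limma adjusted p = 0.000638) and 1.82-fold higher after octanol (difference 0.86, SE 0.12, limma adjusted p = 0.000461). The mean level of 9 mature sensory neuron markers was 17.25 to 17.33 on GFP+ arrays and 17.02 to 17.16 on GFP- arrays, so that RNA of mature neurons was measured in both fractions. The GFP- arrays also held markers of other cells: all 6 monocyte and macrophage markers, all 6 neutrophil markers and all 6 lymphocyte markers passed the test as lower in GFP+ after both exposures. In such bulk samples fewer cells of a type and less RNA per cell cannot be told apart. The labels name each array of a fraction as a replicate from 3 mice. In the octanol comparisons within a fraction, p-values measure the spread between these pools. In the fraction comparisons they measure how the GFP+ minus GFP- difference varies from pool to pool.

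The channel genes present in this tissue were a part of the family. Of the 90 genes, 46 had a mean above background in at least 1 group, and 29 were above it on all 16 arrays. The 29 were Kcna2, Kcna5, Kcna6, Kcnab2, Kcnb2, Kcnc4, Kcng1, Kcnh2, Kcnh3, Kcnh4, Kcnh7, Kcnh8, Kcnip4, Kcnj2, Kcnj5, Kcnj14, Kcnk1, Kcnk7, Kcnk10, Kcnmb1, Kcnmb2, Kcnmb3, Kcnmb4, Kcnn1, Kcnn2, Kcnq1, Kcnrg, Kcns3 and Kcnu1. A further 36 were above background on no array and are only named: Kcna4, Kcna7, Kcnab1, Kcnc2, Kcnd1, Kcnd2, Kcne1, Kcne1l, Kcne2, Kcne3, Kcne4, Kcng2, Kcng3, Kcng4, Kcnh1, Kcnh5, Kcnip1, Kcnj4, Kcnj6, Kcnj9, Kcnj10, Kcnj11, Kcnj12, Kcnj15, Kcnj16, Kcnk2, Kcnk3, Kcnk9, Kcnk12, Kcnk16, Kcnk18, Kcns1, Kcns2, Kcnt2, Kcnv1 and Kcnv2. The remaining 8 (Kcna10, Kcnc1, Kcnf1, Kcnh6, Kcnip2, Kcnj1, Kcnj3 and Kcnj8) passed background on some arrays but in no group mean.

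The first comparison asked which channel genes differ between cells with and without the activity reporter. After vehicle, 25 members (27.8%) were higher in GFP+ cells and 7 (7.78%) were lower by limma at an adjusted p of 0.05 over all genes, where 14.7% and 13.5% of all genes were called. With arrays centred on odorant receptor genes this split turned to 7 higher (7.78%) and 10 lower (11.1%), against 3.23% and 22.5% of all genes. After octanol 25 (27.8%) were higher and 6 (6.67%) lower, against 16.7% and 13.2% of all genes. The same centring gave 6 higher (6.67%) and 29 lower (32.2%), against 2.75% and 44.8% of all genes. The median difference of the 90 genes was 0.25 log2 after vehicle and 0.20 after octanol, beside 0.13 and 0.14 over all genes. Both comparisons called 18 members higher and 6 lower, and the share of all genes called in both was not computed. The difference had 1 sign in all 4 pools for 36 members higher in GFP+ and 9 lower after vehicle (30.1% and 17.6% of all genes), and for 33 and 9 after octanol (30.8% and 16.4%). Of the calls, 8 higher and 2 lower after vehicle, and 4 higher and 1 lower after octanol, were of genes with no group mean above background.

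**Figure D1:**
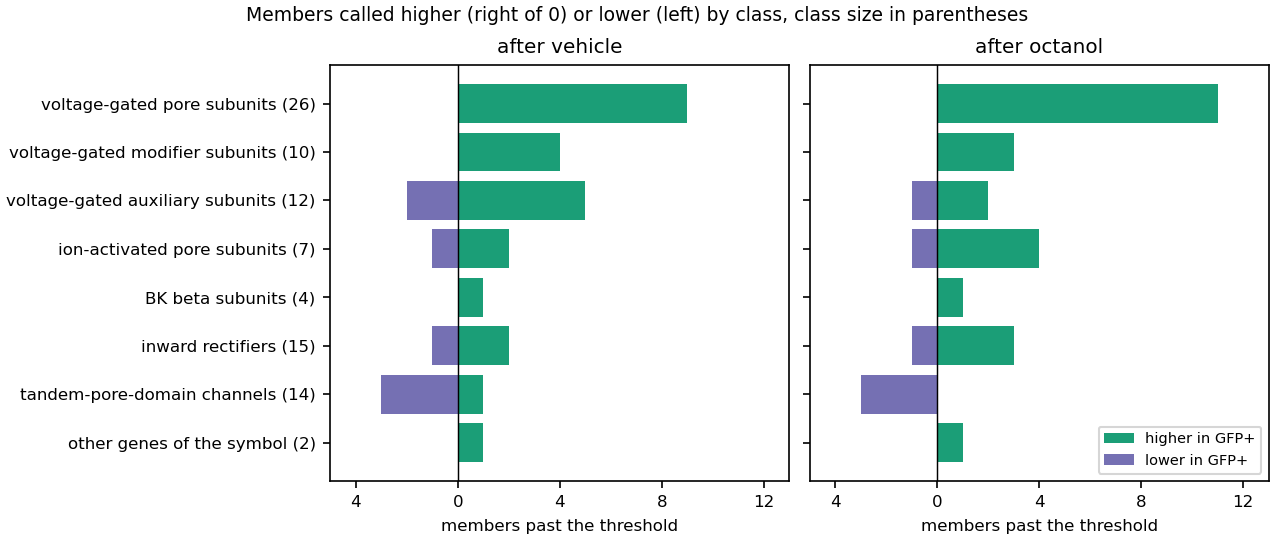
Number of Kcn genes called by limma as higher (bars to the right of 0) or lower (bars to the left) in GFP+ than in GFP- cells, by class, after vehicle and after octanol, on the deposited scale, with the size of each class in parentheses. No voltage-gated pore or modifier subunit was called lower, and 3 of 14 tandem-pore channels were called lower after each exposure. With arrays centred on odorant receptors calls move towards lower, for members as for all genes. The bars include genes with no group mean above background.

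By class, calls are counted on the deposited scale. Beside them, 14.7% of all genes were called higher and 13.5% lower after vehicle, and 16.7% and 13.2% after octanol. Of 26 voltage-gated pore subunits 9 (34.6%) were called higher after vehicle and 11 (42.3%) after octanol, and 0 lower. Of 10 modifier subunits 4 and 3 were higher and 0 lower. Of 12 auxiliary subunits 5 were higher and 2 lower after vehicle, and 2 and 1 after octanol. The 7 pores classed as ion-activated were Kcnn1, Kcnn2, Kcnn3, Kcnn4, Kcnt1, Kcnt2 and Kcnu1. Of these, 2 were higher and 1 lower after vehicle, and 4 and 1 after octanol. Of the 4 beta subunits of the calcium-activated BK channel, 1 was higher after each exposure. Of 15 inward rectifiers 2 were higher and 1 lower after vehicle, and 3 and 1 after octanol. Of 14 tandem-pore channels 1 was higher and 3 lower after vehicle, and 0 and 3 after octanol. Some of these calls were of genes with no group mean above background. Among those called higher after vehicle these were 1 voltage-gated pore, 2 modifier, 3 auxiliary, 1 inward rectifier and 1 tandem-pore gene. Among those called lower they were 1 auxiliary and 1 inward rectifier gene. After octanol they were 1 voltage-gated pore, 1 modifier and 2 inward rectifier genes called higher, and 1 inward rectifier called lower. Differences between classes were not tested.

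The reporter follows neuronal activity, and activity acts on many genes through CREB and AP-1, factors that bind at such start regions, so promoters of 4 members are shown as examples. They are Kcnmb3, the largest mean rise, Kcna6, a smaller rise whose window holds a motif, and Kcnn4 and Kcnip3, the largest mean falls, and they were chosen after their values were seen. RefSeq windows of GRCm38.p6, from 250 bases before to 50 after a start, were found for 69 members (94 windows). They are written 5′ to 3′ on the strand of the gene. The first 2 belong to genes higher in GFP+ cells and the last 2 to genes lower there. Capitals mark a match to TGACG, the core of the CREB site, or to TGANTCA, the AP-1 site, on either strand.
Kcnmb3, chr3:32491920-32492219, minus strand: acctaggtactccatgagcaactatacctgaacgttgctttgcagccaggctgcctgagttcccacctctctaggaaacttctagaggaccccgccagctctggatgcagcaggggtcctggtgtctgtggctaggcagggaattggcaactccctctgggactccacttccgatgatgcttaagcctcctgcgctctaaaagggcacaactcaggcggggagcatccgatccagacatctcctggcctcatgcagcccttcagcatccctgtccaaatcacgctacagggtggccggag
Kcna6, chr6:126740625-126740924, minus strand: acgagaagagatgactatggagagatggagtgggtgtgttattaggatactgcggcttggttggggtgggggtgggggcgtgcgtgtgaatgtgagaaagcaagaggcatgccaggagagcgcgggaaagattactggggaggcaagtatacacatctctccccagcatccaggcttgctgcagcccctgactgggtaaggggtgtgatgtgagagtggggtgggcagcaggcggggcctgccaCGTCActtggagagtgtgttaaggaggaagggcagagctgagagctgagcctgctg
Kcnn4, chr7:24370013-24370312, plus strand: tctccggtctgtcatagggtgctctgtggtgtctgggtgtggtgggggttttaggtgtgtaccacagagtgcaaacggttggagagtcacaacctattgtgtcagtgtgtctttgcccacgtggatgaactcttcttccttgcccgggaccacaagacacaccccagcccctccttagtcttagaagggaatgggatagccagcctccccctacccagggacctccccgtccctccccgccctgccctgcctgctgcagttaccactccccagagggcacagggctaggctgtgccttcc
Kcnip3, chr2:127522045-127522344, minus strand: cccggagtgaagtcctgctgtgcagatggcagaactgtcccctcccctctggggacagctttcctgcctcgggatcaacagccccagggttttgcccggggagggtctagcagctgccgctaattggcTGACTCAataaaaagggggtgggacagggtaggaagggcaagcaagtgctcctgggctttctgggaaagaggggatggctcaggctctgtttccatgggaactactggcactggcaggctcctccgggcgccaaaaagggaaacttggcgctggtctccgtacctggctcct

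TGACG, which is contained in the full site TGACGTCA, occurred in 19 of 94 member windows (20.2%) and in 20.8% of the 32851 windows of the table. TGANTCA occurred in 4 of 94 (4.26%) and in 7.81% of all. TGACGTCA occurred in 0 of 94 against 1.79%. Each motif was searched on both strands, and differences between these shares were not tested. Of the 4 windows printed, those of Kcnmb3 and Kcnn4 hold neither marked motif, Kcna6 holds 1 TGACG and Kcnip3 holds 1 TGANTCA, which its other listed windows lack. A match is a string of letters and not a site shown to be bound.

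Kcnmb3 had the largest mean rise among the named members. It encodes a beta subunit that tunes the gating of BK, a channel opened by voltage and calcium together. After vehicle its level was 14.46, 15.27, 14.86 and 15.39 log2 in GFP+ replicates 1 to 4, and 13.50, 13.97, 13.54 and 13.81 in GFP-. After octanol it was 14.96, 15.10, 15.25 and 15.25 in GFP+, and 13.24, 13.79, 14.34 and 13.77 in GFP-. Every GFP+ array was above every GFP- array. The difference was 1.29 log2 after vehicle (SE 0.14, 2.45-fold, limma adjusted p = 9.51e-05) and 1.35 after octanol (SE 0.14, 2.56-fold, limma adjusted p = 6.71e-05). The other beta subunits, Kcnmb1, Kcnmb2 and Kcnmb4, were above background on all arrays and were called in neither comparison.

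Among pores that calcium opens without voltage, Kcnn1 and Kcnn2 were higher in GFP+ cells and Kcnn4 was lower. Kcnn2 encodes a small-conductance channel that follows a spike with a slow hyperpolarisation. Its level after vehicle was 13.37, 13.18, 13.26 and 13.40 in GFP+ and 12.47, 12.26, 12.34 and 12.28 in GFP-. After octanol it was 13.36, 13.29, 13.08 and 13.42 in GFP+ and 11.97, 12.34, 12.13 and 12.20 in GFP-. The fractions lay far apart with little scatter inside each. The difference was 0.96 after vehicle (SE 0.11, 1.95-fold, limma adjusted p = 8.62e-05) and 1.13 after octanol (SE 0.11, 2.19-fold, limma adjusted p = 2.71e-05). Kcnn1, of the same small-conductance type, rose by 0.43 (limma adjusted p = 0.00837) and 0.37 (limma adjusted p = 0.0167). Its call after octanol was lost without octanol replicate 1 (limma adjusted p = 0.0633) or replicate 2 (limma adjusted p = 0.0657).

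Kcnn4, the intermediate-conductance channel known from blood cells and epithelia, had the largest mean fall. After vehicle it read 5.25, 5.06, 4.99 and 4.93 in GFP+ and 6.55, 5.97, 6.56 and 6.70 in GFP-. After octanol it read 5.14, 5.20, 5.20 and 5.45 in GFP+ and 7.02, 6.35, 6.60 and 7.34 in GFP-. No GFP+ array was above background, while 3 of 4 GFP- arrays after vehicle and 4 of 4 after octanol were. The fitted difference was -1.39 (SE 0.17, limma adjusted p = 0.000157) and -1.58 (SE 0.17, limma adjusted p = 6.23e-05). With values under background raised to it, Kcnn4 was at least 1.16-fold lower in GFP+ after vehicle and at least 1.42-fold lower after octanol.

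**Figure D2:**
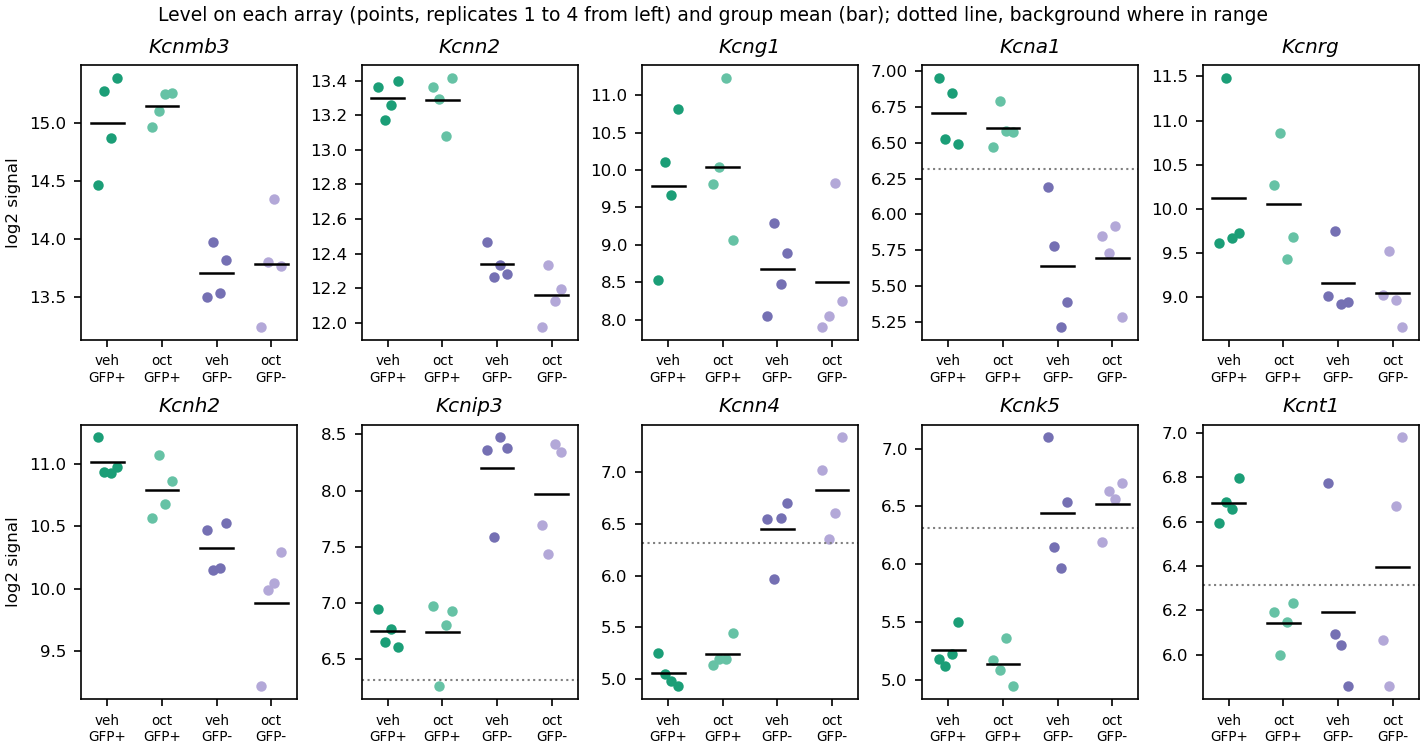
Level of 10 named Kcn genes (log2 signal, a separate axis range for each gene) on each of the 16 arrays, with bars for the group means and a dotted line for the background of 6.32 log2 where it falls within range. GFP+ and GFP- points do not overlap within an exposure for Kcnmb3, Kcnn2, Kcna1, Kcnh2, Kcnip3, Kcnn4 and Kcnk5, they overlap for Kcng1, Kcnrg and Kcnt1, and for Kcnt1 the vehicle GFP+ points lie above the octanol GFP+ points.

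The Shaker-type pores Kcna1, Kcna2 and Kcna6, which open at modest depolarisation and limit repetitive firing, were higher in GFP+ cells after both exposures. Kcna6 was 11.73, 11.55, 11.54 and 11.22 in GFP+ and 11.16, 11.09, 10.37 and 10.28 in GFP- after vehicle, with the lowest GFP+ array just above the highest GFP- array. After octanol Kcna6 was 11.63, 11.52, 11.27 and 11.17 in GFP+ and 10.18, 10.59, 10.74 and 10.48 in GFP-. Its difference was 0.79 (SE 0.17, limma adjusted p = 0.0061) and 0.90 (SE 0.17, limma adjusted p = 0.00277). Kcna2 was 12.90 to 13.27 on GFP+ arrays after vehicle against 12.31 to 12.69 on GFP- arrays, and 12.85 to 13.02 against 12.14 to 12.41 after octanol. The fractions of Kcna2 did not overlap, with differences of 0.54 (limma adjusted p = 0.00218) and 0.63 (limma adjusted p = 0.000829).

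Kcna1 crossed the background between the fractions. It read 6.95, 6.53, 6.85 and 6.49 in GFP+ and 6.19, 5.78, 5.21 and 5.39 in GFP- after vehicle. After octanol it read 6.47, 6.79, 6.58 and 6.57 in GFP+ and 5.85, 5.73, 5.92 and 5.28 in GFP-. All 4 GFP+ arrays and 0 of 4 GFP- arrays were above background after each exposure. The fitted difference was 1.06 (SE 0.17, limma adjusted p = 0.00103) and 0.91 (SE 0.17, limma adjusted p = 0.0027), and the bound was at least 1.31-fold and at least 1.22-fold higher.

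Of the 8 Kcnh pores, Kcnh2, Kcnh3 and Kcnh4 were higher after both exposures and Kcnh8 after octanol only. Kcnh7, above background on all arrays, was called in neither comparison (limma adjusted p = 0.355 and 0.184). Kcnh2, the ERG channel that opens again as a depolarisation ends, was 11.21, 10.94, 10.93 and 10.97 in GFP+ after vehicle and 10.47, 10.15, 10.17 and 10.53 in GFP-. After octanol it was 10.56, 11.07, 10.68 and 10.86 in GFP+ and 9.22, 9.99, 10.04 and 10.29 in GFP-. The groups did not overlap, with differences of 0.68 (SE 0.14, limma adjusted p = 0.00503) and 0.91 (SE 0.14, limma adjusted p = 0.000872). Kcnh3 and Kcnh4, pores of the related ELK type, rose by 0.46 and 0.44 after vehicle (limma adjusted p = 0.0202 and 0.0351) and by 0.52 and 0.45 after octanol (limma adjusted p = 0.011 and 0.0302). Kcnc4, a Shaw-type pore of fast spiking cells, rose by 0.32 (limma adjusted p = 0.0293) and 0.35 (limma adjusted p = 0.0186). The small rises of Kcnh3, Kcnh4 and Kcnc4 were each lost when single replicates were left out: for Kcnh3 any of vehicle replicates 1, 3 and 4 or octanol replicate 2, for Kcnh4 any vehicle replicate, or octanol replicate 1, 2 or 4, and for Kcnc4 any vehicle replicate, or octanol replicate 1 or 2. Limma adjusted p without them ran from 0.0519 to 0.0923 for Kcnh3, from 0.0505 to 0.137 for Kcnh4 and from 0.0667 to 0.09 for Kcnc4. With the arrays of 1 exposure fitted alone, the octanol call of Kcnh4 (limma adjusted p = 0.0646) and both calls of Kcnc4 (limma adjusted p = 0.0544 and 0.0646) were lost.

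Kcns3 and Kcng1 encode modifier subunits that join the slow delayed rectifiers of the Kcnb type. Kcns3 was 13.35 to 13.55 on GFP+ arrays and 12.84 to 13.03 on GFP- arrays after vehicle, and 13.32 to 13.54 and 12.84 to 12.98 after octanol. The difference was 0.53 in both (SE 0.09, limma adjusted p = 0.00209 and 0.00208). Kcng1 varied far more between pools. It read 8.53, 10.10, 9.67 and 10.81 in GFP+ and 8.04, 9.29, 8.47 and 8.90 in GFP- after vehicle. After octanol it read 9.81, 10.04, 11.23 and 9.07 in GFP+ and 7.90, 8.05, 9.83 and 8.25 in GFP-.

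The Kcng1 groups overlapped, yet in each of the 8 pools the GFP+ array was above its GFP- array. The difference was 1.10 after vehicle (SE 0.24, 2.15-fold, limma adjusted p = 0.0073) and 1.53 after octanol (SE 0.24, 2.89-fold, limma adjusted p = 0.00101). The vehicle call was lost without the pool as a block (limma adjusted p = 0.129) and with it as a random block (limma adjusted p = 0.0685). Without the block the octanol call was kept (limma adjusted p = 0.0364).

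Kcnrg, whose protein resembles the assembly domain of voltage-gated channels and can hinder their assembly, behaved likewise. It read 9.61, 11.49, 9.67 and 9.72 in GFP+ and 9.01, 9.75, 8.93 and 8.94 in GFP- after vehicle. After octanol it read 10.27, 10.86, 9.43 and 9.68 in GFP+ and 9.02, 9.52, 8.97 and 8.66 in GFP-. Replicate 2 was the highest of its group in all 4 groups, and GFP+ was above GFP- in each pool. The difference was 0.96 (SE 0.20, limma adjusted p = 0.00523) and 1.02 (SE 0.20, limma adjusted p = 0.00379). Without the pool as a block both calls were lost (limma adjusted p = 0.0761 and 0.0597).

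Kcnab2, the cytoplasmic beta subunit of Shaker-type channels, was 15.85 to 16.06 on GFP+ arrays and 15.41 to 15.74 on GFP- arrays after vehicle. After octanol it was 15.86 to 15.98 and 15.36 to 15.42. The fractions did not overlap, and the differences were 0.43 (limma adjusted p = 0.00533) and 0.51 (limma adjusted p = 0.00184). Kcnip3 went the other way. Its calcium-binding protein joins Kcnd pores and is also known to bind DNA as DREAM. It read 6.95, 6.66, 6.77 and 6.61 in GFP+ and 8.36, 7.59, 8.48 and 8.38 in GFP- after vehicle. After octanol it read 6.97, 6.26, 6.81 and 6.93 in GFP+ and 7.70, 7.44, 8.41 and 8.34 in GFP-. Every GFP- array was above every GFP+ array. The difference was -1.46 (SE 0.17, limma adjusted p = 0.000134) and -1.23 (SE 0.17, limma adjusted p = 0.000435).

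Kcnj2, the classical strong inward rectifier, was the 1 inward rectifier above background that was called higher. After vehicle it was 11.67, 11.75, 11.94 and 11.41 in GFP+ and 11.28, 11.21, 11.02 and 10.03 in GFP-. After octanol it was 11.70, 11.56, 11.08 and 11.49 in GFP+ and 11.06, 11.10, 10.92 and 10.71 in GFP-, where octanol GFP+ replicate 3 lay among the GFP- arrays. The difference was 0.81 (SE 0.16, limma adjusted p = 0.00503) and 0.51 (SE 0.16, limma adjusted p = 0.0416). The call after octanol was lost without the pool as a block (limma adjusted p = 0.105), with it as a random block (limma adjusted p = 0.06) and with quantile normalisation (limma adjusted p = 0.0531). It was also lost without vehicle replicate 3 or octanol replicate 1, 2 or 4 (limma adjusted p = 0.0563 to 0.153).

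The leak channels that passed the test above background were all lower in GFP+ cells. Kcnk1 and Kcnk6 encode TWIK channels and Kcnk5 a channel that opens at alkaline pH. Kcnk5 read 5.18, 5.12, 5.22 and 5.50 in GFP+ and 7.10, 6.15, 5.97 and 6.54 in GFP- after vehicle, and 5.17, 5.09, 5.36 and 4.94 against 6.19, 6.63, 6.56 and 6.71 after octanol. No GFP+ array of Kcnk5 or Kcnk6 was above background. The Kcnk5 difference was -1.18 (SE 0.19, limma adjusted p = 0.00108) and -1.38 (SE 0.19, limma adjusted p = 0.000382), at least 1.19-fold and 1.18-fold lower.

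Kcnk1 read 7.12, 7.55, 7.80 and 7.52 in GFP+ and 8.77, 8.42, 7.84 and 8.51 in GFP- after vehicle, where replicate 3 of the fractions nearly met. After octanol it read 7.52, 7.55, 7.81 and 7.54 in GFP+ and 8.58, 8.74, 9.04 and 8.17 in GFP-. Its difference was -0.89 (SE 0.21, limma adjusted p = 0.0123) and -1.03 (SE 0.21, limma adjusted p = 0.00559). The vehicle call was lost without vehicle replicate 1 (limma adjusted p = 0.0522) and with quantile normalisation (limma adjusted p = 0.0753). Kcnk6 fell by 0.87 (limma adjusted p = 0.00589) and by 0.75 (limma adjusted p = 0.0126), at least 1.16-fold and 1.25-fold lower. Its octanol call was lost without octanol replicate 2 (limma adjusted p = 0.0565) or replicate 4 (limma adjusted p = 0.0598).

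**Figure D3:**
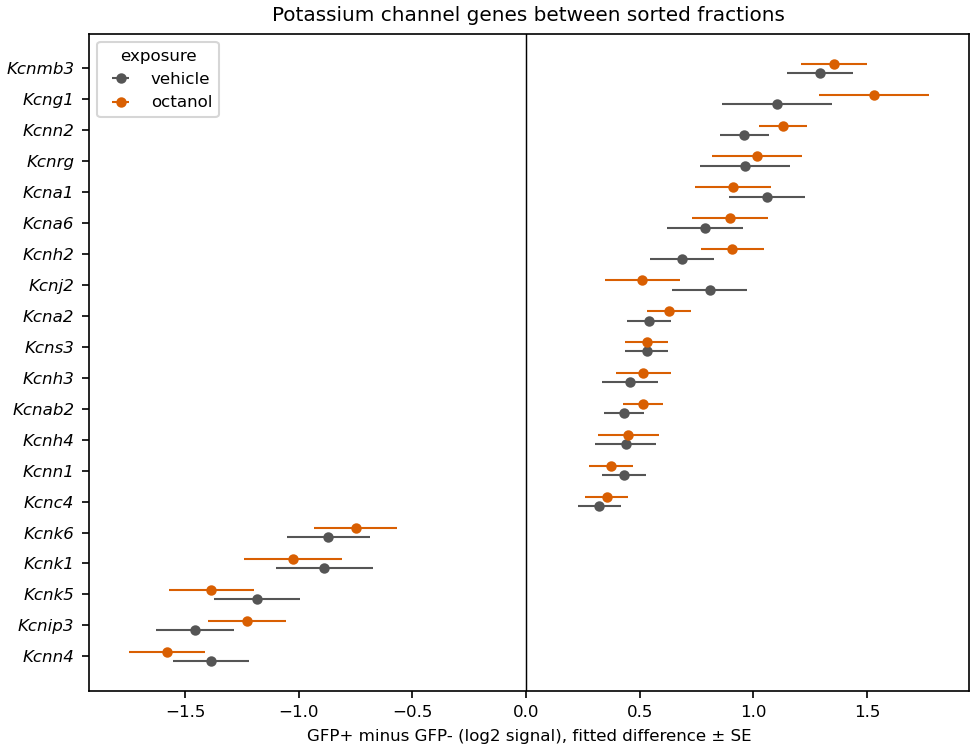
Fitted GFP+ minus GFP- difference (log2 signal, points) with its standard error (bars) for the 20 named Kcn genes after vehicle and after octanol, on the deposited scale. After vehicle the differences run from -1.46 (Kcnip3) to 1.29 (Kcnmb3), and after octanol from -1.58 (Kcnn4) to 1.53 (Kcng1); after octanol the rises of Kcnh4, Kcnn1 and Kcnc4 change sign when arrays are centred on odorant receptors.

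Markers of several other cell types were, like the falls, lower in GFP+ cells. The mean level of the 6 monocyte and macrophage markers was 7.30 to 7.92 in vehicle GFP+ and 12.55 to 13.04 in vehicle GFP-, and 7.29 to 9.06 and 12.51 to 13.27 after octanol. That of the 6 neutrophil markers was 6.89 to 8.09 and 15.16 to 16.13 after vehicle, and 7.83 to 10.53 and 15.63 to 16.47 after octanol. Lymphocyte markers lay at 5.12 to 5.27 and 7.36 to 9.03 after vehicle, and at 4.94 to 5.48 and 7.30 to 8.32 after octanol, with 5 of 6 under background in GFP+ and 1 of 6 in GFP-. Immature sensory neuron markers were lower in GFP+ for 8 of 9 after each exposure (median -2.66 and -2.23), with mean levels of 10.52 to 10.66 and 12.83 to 13.17 after vehicle. Microvillar and tuft cell markers were lower for 6 of 6, sustentacular markers for 3 of 5 and Bowman gland markers for 3 of 4. All 4 measured progenitor and cell cycle markers and the 1 erythroid marker were lower. Endothelial and mural markers were lower for 2 of 6 after vehicle and 3 of 6 after octanol. Horizontal basal cell markers were lower for 1 of 4, and 1 was higher after octanol. Fibroblast markers were lower for 1 of 4 after vehicle and 0 of 4 after octanol. Of 4 olfactory glia markers 1 was lower after each exposure and 1 higher after vehicle. The part of these cells in the falls of Kcnn4, Kcnip3, Kcnk1, Kcnk5 and Kcnk6, and in the rises, was not tested. Of the 9 mature neuron markers 2 were higher in GFP+ after vehicle and 3 after octanol (median 0.15 and 0.20).

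The scaling of the arrays decided how many members were called. The share of higher calls among called members was 78.1% after vehicle and 80.6% after octanol as deposited (52.2% and 55.9% over all genes). Median centring of the arrays gave 91.9% and 90.6%, against 41.2% and 17.1% with centring on odorant receptors, and 55.0% and 47.4% with centring on mature neuron markers. Over all genes these shares were 86.5% and 84.9%, 12.6% and 5.78%, and 24.1% and 19.1%. The median of all genes moved from 0.13 and 0.14 to 0.46 and 0.41 under median centring, to -0.17 and -0.36 under receptor centring, and to -0.04 and -0.12 under mature neuron centring. Under receptor centring 7.78% of members but 3.23% of all genes were called higher after vehicle, and 6.67% against 2.75% after octanol.

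Of the 15 named rises, 5 were called after both exposures under all 5 scalings: Kcnmb3, Kcng1, Kcnn2, Kcnrg and Kcna6. Of these, Kcng1 after vehicle and Kcnrg after both exposures lost their calls without the pool as a block. Receptor centring kept 7 of the 15 after vehicle and 6 after octanol, and mature neuron centring 10 and 8. Of the 5 falls, Kcnn4, Kcnip3, Kcnk5 and Kcnk6 were called after both exposures under all 5.

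**Figure D4:**
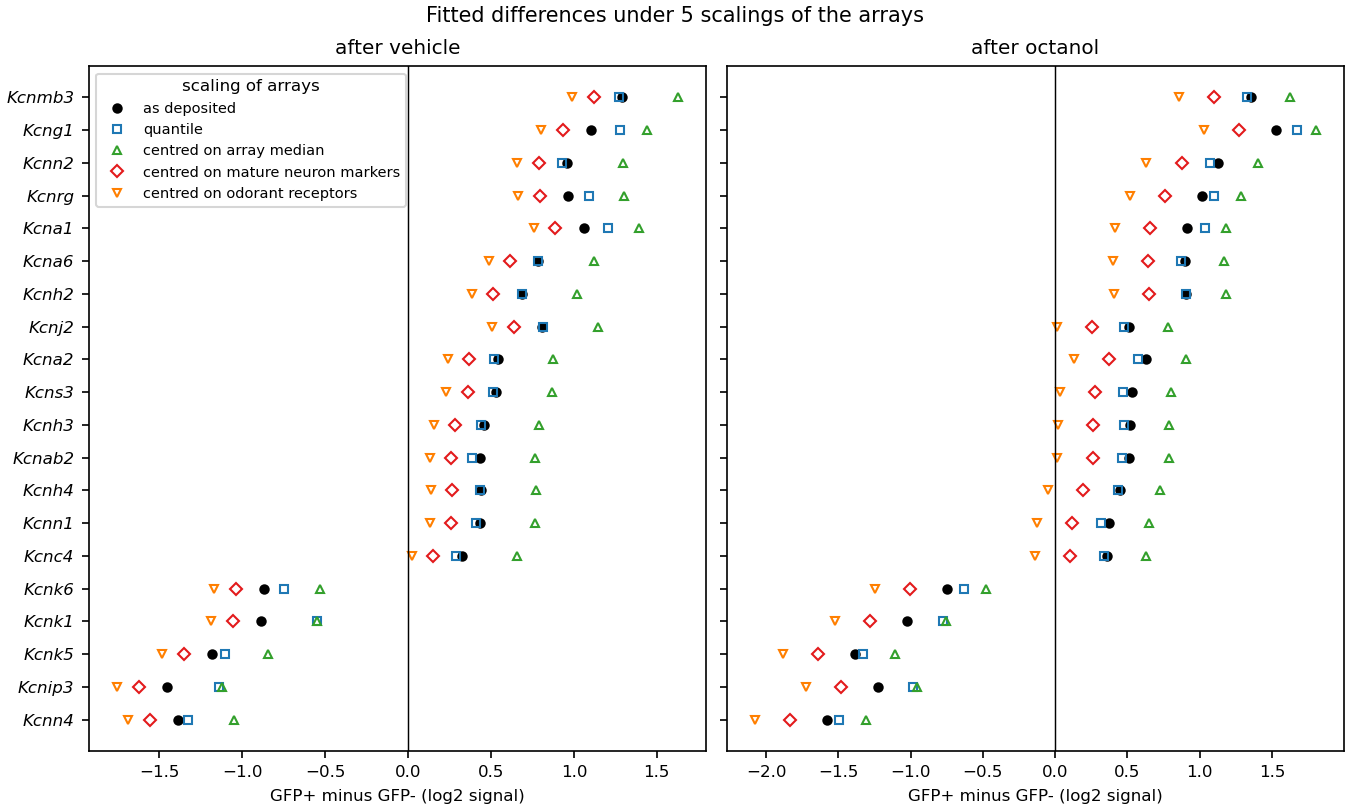
Fitted GFP+ minus GFP- difference (log2 signal) of the 20 named Kcn genes after vehicle and after octanol, with a marker for each of 5 scalings of the arrays. Receptor centring lies furthest to the left for every gene and takes Kcnh4 (-0.048), Kcnn1 (-0.12) and Kcnc4 (-0.14) below 0 after octanol, while Kcnmb3, Kcng1, Kcnn2, Kcnrg and Kcna6 stay above 0 and the 5 falls below it.

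Members called after 1 exposure are listed without full statistics. After vehicle alone Kcnab1, Kcne1, Kcne2, Kcng4, Kcnj11, Kcnk18 and Kcnq1 were called higher and Kcnip2 lower, and of these Kcnq1 alone had a group mean above background. After octanol alone Kcna5, Kcnd3, Kcnh8, Kcnj9, Kcnj12, Kcnn3 and Kcnu1 were called higher. Kcnip4, Kcnd1 and Kcng2 were higher and Kcnj3 lower after both exposures. A call after 1 exposure only does not show that octanol changed the difference, and the test of that change gave 0 calls.

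The second question was whether octanol itself altered channel gene levels. Limma called 0 of the 90 members (and 0% of all genes) for octanol against vehicle in GFP+ cells, in GFP- cells, or for the change that octanol made to the difference between fractions. At an unadjusted p under 0.05 there were 2 members of 727 genes in GFP+, 5 of 894 in GFP- and 5 of 886 for the effect on the difference. Groups of 4 arrays did not overlap for 2 members lower after octanol in GFP+ cells, Kcnt1 and Kcnn1, and for 0 higher (0.964% and 1.25% of all genes). In GFP- cells 1 member was lower without overlap, Kcnh3, and 0 higher (1.51% and 1.06%).

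Kcnt1, a pore opened by intracellular sodium after a burst of spikes, had the lowest p. Its GFP+ level was 6.59, 6.69, 6.66 and 6.80 after vehicle and 6.19, 5.999, 6.15 and 6.23 after octanol, so that 4 of 4 vehicle arrays and 0 of 4 octanol arrays were above background. In GFP- cells it was 6.77, 6.09, 6.05 and 5.86 after vehicle and 6.07, 5.86, 6.67 and 6.98 after octanol, with overlap. The GFP+ difference was -0.54 (SE 0.11, 95% interval -0.78 to -0.31, limma unadjusted p = 0.000467, adjusted p = 0.9996). Setting the octanol GFP+ arrays equal to the background gave a mean fall of 1.29-fold. That figure is an estimate from these arrays and not a lower limit. The change in the difference between fractions was -0.74 (limma unadjusted p = 0.0261, adjusted p = 0.998). Kcnt1 thus did not pass the correction.

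The other members of lowest p also failed the correction. In GFP+ cells the octanol minus vehicle difference was -0.28 for Kcng4, 0.48 for Kcnj13, an inward rectifier of epithelia, -0.20 for Kcnn1 and 0.26 for Kcnd3, and Kcng4 was above background on no array. In GFP- cells it was 0.38 for Kcnk7, 0.33 for Kcnj14, 0.48 for Kcnf1 and -0.49 for Kcnb2, a slow delayed rectifier. Kcnf1 was above background on no GFP- array, and Kcnh5 on no array. Kcnh8, an ELK pore, had a GFP+ to GFP- difference of 0.29 after vehicle and 0.81 after octanol. The effect of octanol on it was 0.52 (limma unadjusted p = 0.0447, adjusted p = 0.998). Kcnt2, Kcne2 and Kcnk18, next in that comparison, were above background on no array.

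**Figure D5:**
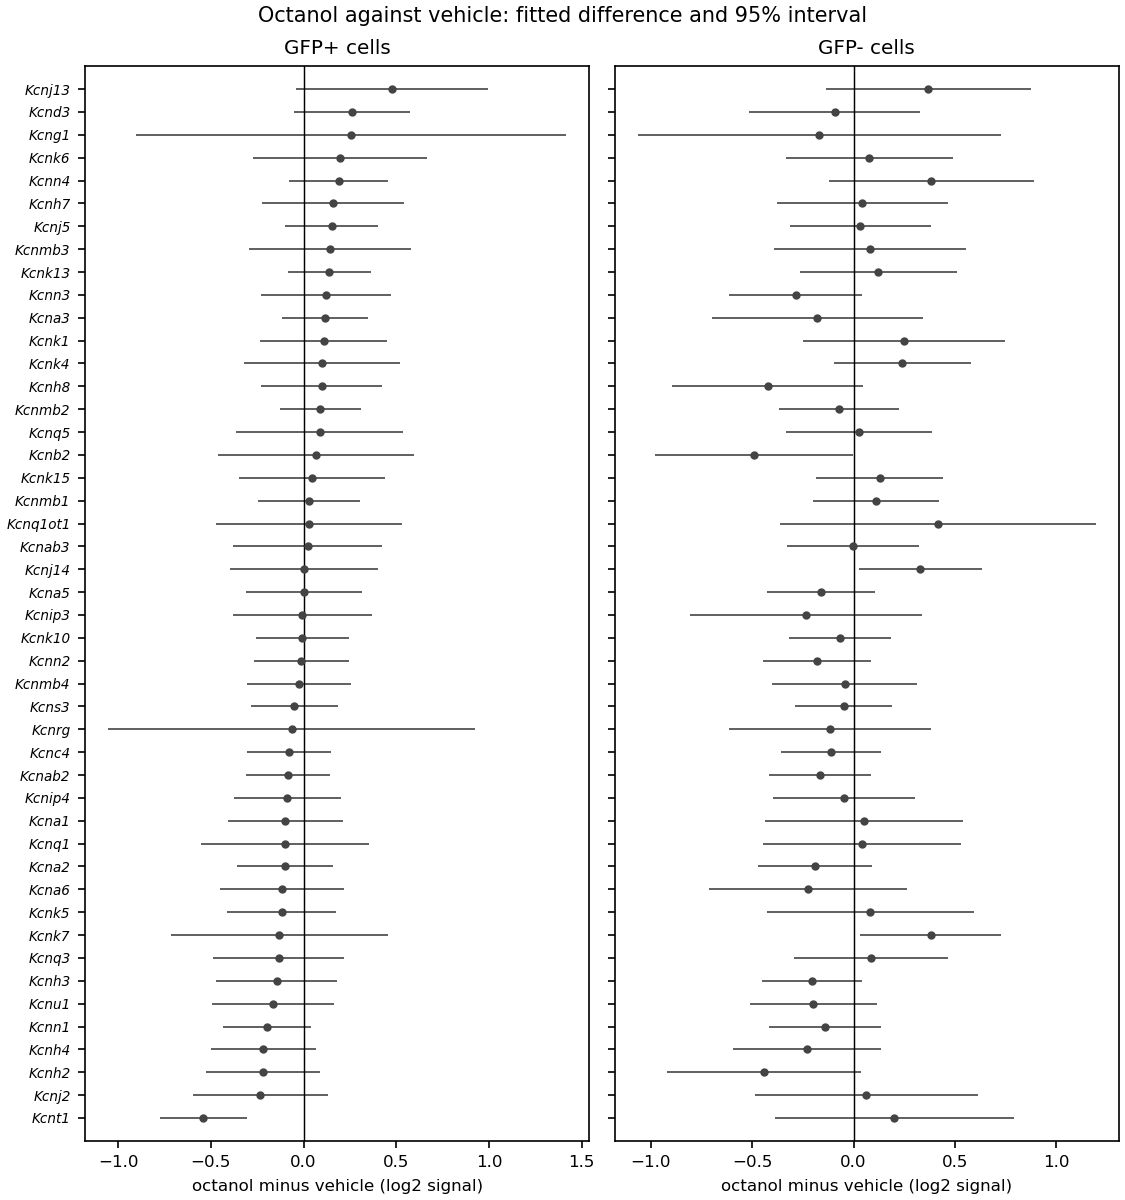
Octanol minus vehicle difference (log2 signal, points) with its 95% interval (bars) in GFP+ cells and in GFP- cells for the 46 Kcn genes with a group mean above background. Kcnt1 in GFP+ cells, at -0.54, has the interval farthest from 0, and none of the genes shown passed limma at an adjusted p of 0.05.

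The intervals give what these 4 arrays a group could see. Over the 90 members the difference in GFP+ cells ran from -0.54 (Kcnt1) to 0.48 (Kcnj13), the median half-width of the 95% interval was 0.352 log2, and 87 intervals lay within a 2-fold change in either direction. In GFP- cells the range was -0.49 (Kcnb2) to 0.48 (Kcnf1), with a half-width of 0.353 and 88 intervals within 2-fold. For the octanol effect on the fraction difference it was -0.74 (Kcnt1) to 0.56 (Kcnb2), with 0.483 and 78. These counts include 36 members above background on no array, whose intervals describe background signal and cannot bound a change in RNA. Kcnf1 was above background on no GFP- array. For Kcnmb3, the interval of the octanol difference in GFP+ cells was -0.29 to 0.58, and for Kcnn2 it was -0.27 to 0.25.

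Genes that work with these channels but carry other symbols were counted on the deposited scale, where 14.7% of all genes were higher and 13.5% lower after vehicle, and 16.7% and 13.2% after octanol. Of 12 auxiliary genes outside the Kcn symbols, 3 were higher and 0 lower after vehicle (median 0.21) and 2 and 0 after octanol (median 0.10), the latter near the share of all genes. Amigo1, an adhesion protein that joins Kcnb pores, rose by 0.77 (SE 0.11, limma adjusted p = 0.000657) and 0.57 (SE 0.11, limma adjusted p = 0.00443). Lingo1, which binds BK channels, rose by 0.27 in both (limma adjusted p = 0.0487 and 0.0444). Abcc8, the sulfonylurea receptor, was called after vehicle only (0.46), but it was above background on no array.

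Of 9 measured sodium potassium pump genes, which restore the gradient that the channels use, 1 was higher and 2 lower after vehicle (median -0.15), and 2 and 3 after octanol (median 0.25). Fxyd2, a pump regulator, was higher by 3.73 (SE 0.17, limma adjusted p = 2.78e-07) and 3.64 (SE 0.17, limma adjusted p = 3.31e-07), more than any Kcn gene. Fxyd6, of the same regulator family, fell by 1.05 and 0.95, and the pump beta subunit Atp1b3 fell by 0.86 and 0.59. Atp1b2, also called lower after octanol, was above background on no array. Of 9 measured HCN and CNG channel genes, cation channels of the same structural superfamily, 3 were higher and 0 lower after each exposure (median 0.19 and 0.30). The pacemaker channels Hcn2 and Hcn4 rose by 0.34 and 0.37 after vehicle and by 0.55 and 0.56 after octanol. Cnga3 was also called higher after vehicle, but it was above background on no array. In the octanol comparisons 0 genes of these lists were called. Differences of these lists are given on the deposited scale only. Centring on odorant receptors moved the median of all genes from 0.13 to -0.17 after vehicle and from 0.14 to -0.36 after octanol. Whether the small rises of Lingo1, Hcn2 and Hcn4 hold under it is not reported here.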

How the data were processed

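Log2 signals were used as deposited. The authors computed them with Affymetrix Expression Console, per the submitters' processing notes, which give neither version nor settings. Probe sets with exactly 1 symbol were kept (19505 genes after taking the highest mean over 16 arrays). Members, classes and lists were chosen with earlier results of these data known. Fits used limma 3.58.1 (lmFit, eBayes, 2-sided) in R 4.3.3, with Benjamini-Hochberg adjustment over all genes and a threshold of 0.05. Fraction comparisons used all 16 arrays with a fixed block for the pool, and octanol comparisons the 8 arrays of a fraction.

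The fractions of 1 exposure and replicate number were taken as 1 pool because 24 mice make 8 pools of 3. Their residuals correlated at 0.0779 to 0.222, 6 of 8 above 0.1, and those of the same number in the other exposure at 0.0582 to 0.332, so the pairing is inferred. Named members passed the threshold in both fraction comparisons in 1 direction, with 1 sign in all pools and a group mean above background (the 15 largest rises and all falls), or had the 5 lowest p in an octanol comparison. Fold changes with values under background raised to it compare group means. They do not allow for the spread between pools and are not lower limits. Alternatives were scaling, a background filter, averaged probe sets, an intensity trend, blocks and leaving out replicates. Centring on mature neuron markers was chosen after seeing the data. The fits were tested on simulated data.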

Additional observations from a re-analysis of the deposited data

Results flagged for a closer look

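In the named members 132 groups of 4 arrays were tested for 1 array far from the other 3 (Dixon's test at 95%), and 7 (5.30%) had one, where chance gives about 1 in 20. Kcnrg replicate 2 stood above the others in both vehicle fractions, at 11.49 in GFP+ (others 9.61 to 9.72) and 9.75 in GFP- (others 8.93 to 9.01). Kcnip3 was low in vehicle GFP- replicate 2, at 7.59 (others 8.36 to 8.48). Kcnh2 was high in vehicle GFP+ replicate 1, at 11.21 (others 10.93 to 10.97). Kcnc4 was high in vehicle GFP- replicate 1, at 15.58 (others 15.38 to 15.39). Kcnk1 was high in octanol GFP+ replicate 3, at 7.81 (others 7.52 to 7.55). Kcnb2 was low in vehicle GFP+ replicate 4, at 6.96 (others 7.31 to 7.35).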

How the results depend on the processing

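Counts of members moved most with the scaling. Members called higher after vehicle were 25 as deposited, 68 with median-centred arrays, 7 centred on odorant receptors and 11 centred on mature neuron markers, a setting chosen after seeing the data. After octanol they were 25, 58, 6 and 9. Of all genes 14.7%, 65.4%, 3.23% and 5.33% were called higher after vehicle, and 16.7%, 58.5%, 2.75% and 4.59% after octanol. Members called lower after octanol were 6 as deposited, 29 with receptor centring and 10 with mature neuron centring. These are 6.67%, 32.2% and 11.1% of members, against 13.2%, 44.8% and 19.5% of all genes. Leaving out 1 replicate gave 15 to 25 higher calls after vehicle (15 without vehicle replicate 4, 16 without vehicle replicate 1) and 16 to 26 after octanol (16 without octanol replicate 1). Of 19505 genes, 1724 were higher after vehicle without vehicle replicate 4 and 1836 without vehicle replicate 1, against 2871 as deposited. After octanol 1799 were higher without octanol replicate 1, against 3257 as deposited. Receptor centring reversed Kcnh4 (-0.048), Kcnn1 (-0.12) and Kcnc4 (-0.14) after octanol. The cause of these shifts was not tested. With no replicate block 22 members were higher and 7 lower after vehicle, against 2456 and 2535 of 19505 genes. After octanol they were 21 and 7, against 2806 and 2474 genes. A random replicate block gave 26 and 7 after vehicle, against 3280 and 2766 genes, and 23 and 8 after octanol, against 3688 and 2663. A replicate block in the octanol comparisons, whose samples share only a number, kept 0 calls. At an unadjusted p under 0.05 it gave 2 members of 806 genes in GFP+ and 8 of 1277 in GFP-. Of 969 alternatives of named results, 902 kept direction and side of the threshold, 64 lost the threshold and 3 reversed. The 902 include octanol results that were not called as deposited and so had no call to lose. They also include averaged probe sets, which could not change members that have 1 probe set each. Leaving out a replicate of the other exposure kept a fraction difference as it was, though not its p-value. The number of arrays and levels near background limit the precision.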
